A study of Mus musculus with 3 samples.

Results

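Fos, Fosb, Fosl1, Junb and Atf3 encode transcription factors of the AP-1 group, and all 5 had windows of the RUNX3-FLAG library beside them. They were examined in chromatin immunoprecipitation sequencing (ChIP-seq) data of mouse chondrocytes from the superficial zone (SFZ) of articular cartilage, the layer that faces the joint cavity. The genes were chosen from those with rows in the deposited tables of genes that neighbour each RUNX3-FLAG window. The presence of a window beside them is therefore a description and was not tested. Fosl2, Jdp2, Maf and Mafa also had rows and are described with the other family genes. They are 5 of the 1966 gene identifiers deposited beside the 1000 windows of the main list, and 6 windows lay beside them. Among 21887 protein-coding genes of RefSeq, 8.89% were deposited beside a window of that list, and the share was also 8.89% for a companion list. These shares are read as background only, since every chosen gene had a window by the choice.

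There were 3 libraries, 1 per group, all from SFZ chondrocytes of wild-type C57BL/6 mice that had been lipofected with vectors expressing 3xFLAG-tagged Runx3. Chromatin was pulled down with the FLAG antibody M2 (RUNX3-FLAG), with an antibody against mouse IgG (IgG), or left without pulldown (input). The cells made tagged Runx3 from a vector in addition to their own, so the windows describe the transfected factor, and no untransfected cells were compared. Each deposited list held 1000 ranked windows of 101 bp from the RUNX3-FLAG library, with rank 1 the highest. The list whose name adds IgG is called the IgG-named list, and the control it was called against is not stated. Both lists come from the same library, so a window found in both is not independent evidence. The files held no read count, height or P value for a window, the depth is unknown, and no value has an error between replicates because each group is 1 library.

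AP-1 is a dimer of basic leucine zipper proteins. Fos proteins (Fos, Fosb, Fosl1 and Fosl2) pair with Jun proteins (Jun, Junb and Jund), and the pairs bind AP-1 sites. These were sought here by the letters TGANTCA, where N is any base, which is wider than the form TGA(C/G)TCA. Atf3, a stress-induced repressor or activator depending on its partner, belongs to the related Atf group, whose members also bind the cAMP response element TGACGTCA. Fos, Fosb, Junb and Atf3 are immediate early genes that respond within minutes to serum, growth factors and mechanical load, partly through CArG boxes bound by the serum response factor and through cAMP response elements. In cartilage, AP-1 is known for the induction of matrix-degrading enzymes such as Mmp13 after inflammatory stimuli. Runx factors bind TGTGGT, and also the close forms TGTGGC as well as TGCGGT and the similar form TGCGGC, which together are called the Runx motif here, and Runx and AP-1 proteins are known to act together on some promoters.

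The sequences of the windows are shown because the 5 genes differed in which of these sites their windows held. All are from the + strand of mm9, read 5′ to 3′. In the windows near Atf3, Fosb, Fosl1 and Fosl2, capitals mark Runx motifs (also as the complement, for example ACCACA for TGTGGT) and AP-1 sites. In the Junb window and the Fos promoter, capitals mark CArG boxes and the core of the cAMP response element, TGACG or its complement CGTCA. The Fosb sequence includes 50 bases on each side of the window. The Fos sequence is not the window itself but 300 bases before the gene, ending 15 bases before the GENCODE start. The Fosl2 window is shown for comparison, as it belongs to a relative outside the 5 genes.
Atf3 rank 27 (chr1:193116370-193116470): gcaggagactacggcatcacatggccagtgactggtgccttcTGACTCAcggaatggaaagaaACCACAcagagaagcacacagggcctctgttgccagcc
Atf3 rank 596 (chr1:193054339-193054439): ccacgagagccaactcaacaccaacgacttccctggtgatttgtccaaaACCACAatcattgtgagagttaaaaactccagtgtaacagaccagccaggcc
Fosb rank 251 (chr7:19902144-19902344): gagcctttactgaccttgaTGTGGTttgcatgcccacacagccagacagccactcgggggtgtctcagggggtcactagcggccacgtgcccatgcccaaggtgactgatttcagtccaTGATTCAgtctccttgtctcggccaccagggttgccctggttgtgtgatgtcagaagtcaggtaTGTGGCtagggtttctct
Fosl1 rank 365 (chr19:5445067-5445167): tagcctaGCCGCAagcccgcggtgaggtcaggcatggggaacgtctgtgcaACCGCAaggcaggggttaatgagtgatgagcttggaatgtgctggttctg
Junb rank 650 (chr8:87500503-87500603): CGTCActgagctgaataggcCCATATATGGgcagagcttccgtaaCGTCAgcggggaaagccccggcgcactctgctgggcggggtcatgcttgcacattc
Fos promoter (chr12:86814526-86814825): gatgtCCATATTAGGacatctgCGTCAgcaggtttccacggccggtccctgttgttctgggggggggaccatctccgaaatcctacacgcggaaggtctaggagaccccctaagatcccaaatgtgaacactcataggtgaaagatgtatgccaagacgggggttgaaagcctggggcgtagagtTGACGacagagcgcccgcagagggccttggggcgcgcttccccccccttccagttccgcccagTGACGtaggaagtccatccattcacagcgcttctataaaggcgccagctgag
Fosl2 rank 514 (chr5:32286486-32286586): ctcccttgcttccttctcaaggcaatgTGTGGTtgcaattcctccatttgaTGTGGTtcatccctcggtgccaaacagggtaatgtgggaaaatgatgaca

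The windows beside the 5 genes lay in different places relative to the genes. The Fos window covered the transcription start site (TSS), the Junb window lay just past the gene end, the Fosl1 and Fosb windows lay a few kb upstream, and the Atf3 windows lay 47.2 and 109 kb upstream. In all, 3 of the 5 genes had a window within 5 kb of their TSS (Fos, Fosl1 and Junb), and 1 had a window within 0.5 kb (Fos). By GENCODE, annotated on the same assembly, 2.03% of 22367 protein-coding genes had a window within 5 kb of their start, 7.88% within 50 kb and 13.6% within 100 kb. All 5 genes had a window within 50 kb. The choice of genes with windows favours this count and also those within 5 kb and 0.5 kb. Of all 1000 windows of the main list, 254 were within 0.5 kb of a TSS, 111 at 0.5 to 5 kb, 334 at 5 to 50 kb and 301 farther.

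**Figure D1:**
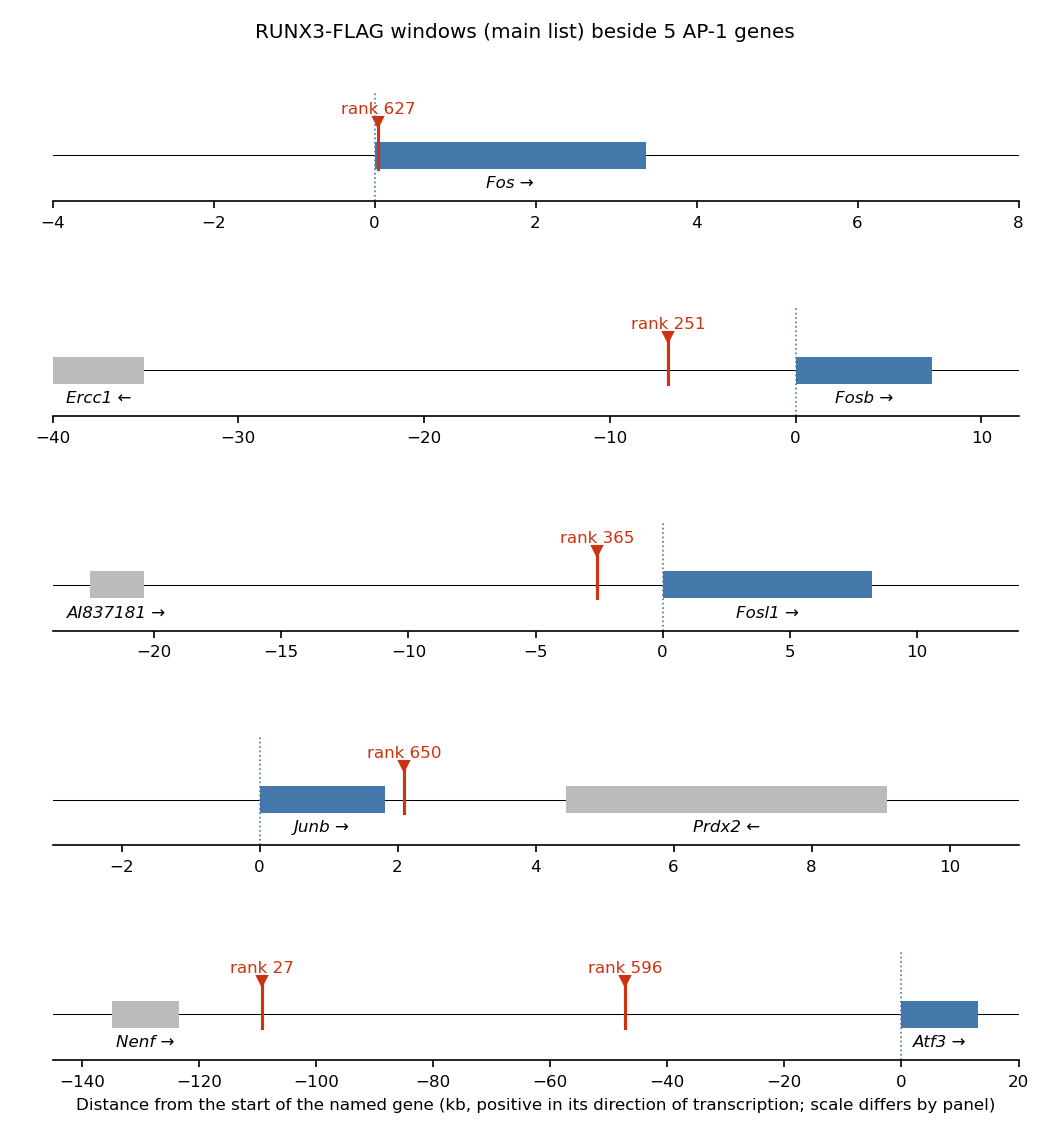
Map of each gene (blue) with the deposited flanking genes (grey) and the centres of the RUNX3-FLAG windows of the main list (red, with their ranks). The horizontal axis is the distance in kb from the start of the named gene along its own direction of transcription, the scale differs between panels, arrows give the direction of transcription, and Tmed10 and Jundm2, which flank the Fos window at 99.2 and 125 kb, lie outside the panel. The Fos window sits on the gene start, the Junb window past the gene end, and the other 4 windows upstream.

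The ranks of the windows ran from 27 to 650 in the main list. The highest was the distal Atf3 window (rank 27), followed by Fosb (251), Fosl1 (365), the proximal Atf3 window (596), Fos (627) and Junb (650). In the IgG-named list the ranks were 28, 255, 356, 598, 641 and 664 for the same windows, in the same order. Windows of Fos, Fosb, Junb and the distal window of Atf3 were identical in both lists. Those of Fosl1 and the proximal window of Atf3 were shifted by 2 bp and shared 99 of 101 bp. Fosb and Atf3 had windows in the top 33.3% of the list. The window closest to its gene was thus not the highest. The highest was the farthest from its gene only when assigned to Atf3, as the TSS of Nenf lay nearer to it.

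**Figure D2:**
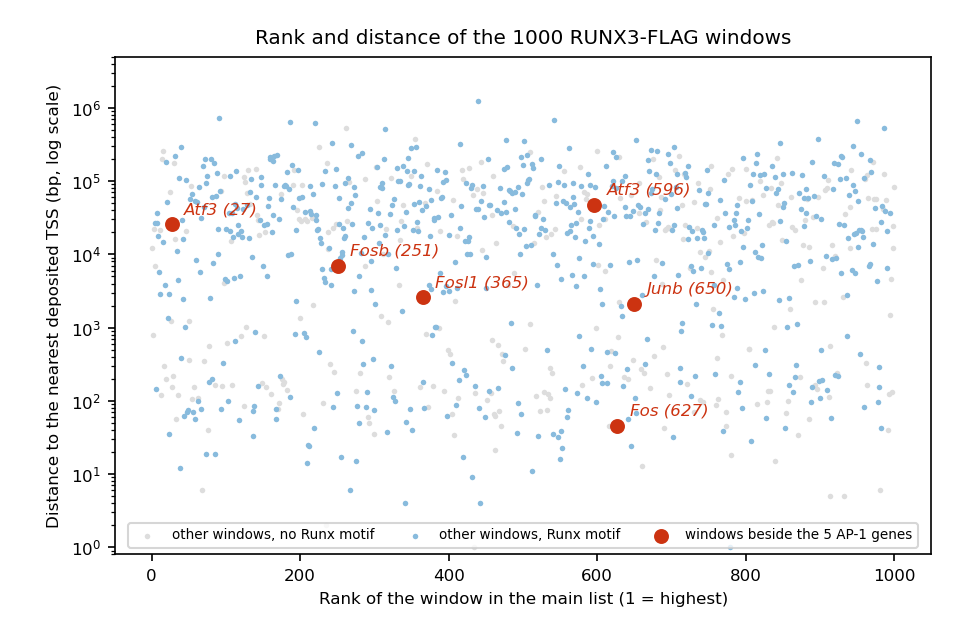
Distance from the window centre to the nearest deposited TSS (vertical axis, bp, log scale) against rank in the main list (horizontal axis) for 1000 windows, coloured by the presence of a Runx motif, with the 6 windows beside the AP-1 genes in red. The red points run from 46 bp (Fos, rank 627) to 47177 bp (Atf3, rank 596), and the distal Atf3 window (rank 27) is drawn at 25577 bp because Nenf, not Atf3, has its nearest TSS.

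Fos, the founding member of the group and the textbook immediate early gene, was the only gene of the 5 with a window on its start. The window (rank 627, chr12:86814847-86814947) was deposited in the 5'UTR of Fos (Entrez 14281, NM_010234, + strand), with its centre 46 bp downstream of the deposited TSS. It held 4 bases before that TSS and 97 from it on. The GENCODE start lies 11 bp earlier, which puts the centre 57 bp downstream of it. Fos was the gene deposited as nearest. The other flanking genes were Tmed10, a cargo receptor of the secretory pathway, with its TSS 99.23 kb away, and Jundm2, with its TSS 125.469 kb away. Jundm2 is the older symbol of Jdp2, which encodes a Jun dimerization partner. At 46 bp, the window was closer to a TSS than most, and 5.3% of the windows lay at that distance or nearer.

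The Fos window held no Runx motif, AP-1 site, CArG box or TGACG. It also lacked the GC box GGGCGG, found in 13.8% of all windows, the letters CCAAT, found in 11.7%, the ETS core CCGGAA, found in 7.7%, and the cAMP response element, found in 1.4%. Among windows within 0.5 kb of a TSS, the class of this window, 31.9% held the GC box, 14.6% CCAAT and 22.4% the ETS core. In that class, 2.36% held the cAMP response element and 18.5% TGACG or its complement. In the window and 600 bp to each side (1301 bp), there was no Runx motif on either strand and 1 AP-1 site. Within 300 bp of the centre, 5.4% of the 1000 windows lacked the motif in the same way, and the median was 2 motifs per window. No match says only that these letters are not in this stretch. The printed promoter holds the CArG box that begins 309 bases before the GENCODE start, with the 5 letters CGTCA closely after it, and TGACG at 129 and 66 bases before the start. The middle of the CArG box was 361.5 bp from the window centre. The GC content of the Fos window was 63.4%, at or above that of 76.5% of all 1000 windows, and it held 8 CpG. Both values were slightly below the medians of its own distance class, which were 65.3% GC and 9 CpG.

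Junb, a Jun protein that is induced early and restrains Jun in many cells, had a window past its end. The window (rank 650, chr8:87500503-87500603) was centred 2094 bp downstream of the TSS of Junb (Entrez 16477, NM_008416, - strand) and 278 bp beyond its transcription end site, in the interval of 2618 bp between Junb and Prdx2. Prdx2 encodes a peroxiredoxin, and its end lay 2.341 kb and its TSS 7.006 kb from the centre. Junb was both the gene deposited as nearest and the gene with the nearest TSS. Another window (rank 71) lay 29.312 kb away, beside Rtbdn, Mast1 and Rnaseh2a, and it was the closest other window to any of these 6.

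The Junb window held a CArG box, CCATATATGG, at bases 21 to 30 counted from its lower coordinate, and the core CGTCA at bases 1 to 5 and 46 to 50. A GC box (GGGCGG) stood at bases 78 to 83. A CArG box occurred in 4 of the 1000 windows of the main list (0.4%, Wilson 95% interval 0.156 to 1.02%), and in 0.3% and 0.5% of stretches of the same length 500 bp to the left and right. The nearest TSSs of the other CArG windows belonged to Nsf (rank 639), Wdr22 (rank 691) and Stub1 (rank 702), and each of those windows also held a Runx motif. The Junb window held none, and the nearest was 248.5 bp from its centre. TGACG or its complement was found in 11.5% of the windows. As background, a serum response element and a cAMP response element downstream of Junb have long been described as enhancer elements of this gene.

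Fosl1, which encodes Fra-1, a Fos protein induced later than Fos, had a window 2581 bp upstream of its TSS (rank 365, chr19:5445067-5445167, Entrez 14283, NM_010235, + strand). In the IgG-named list the distance was 2579 bp. The table of nearest genes gave Ccdc85b for this window, a coiled-coil gene on the opposite strand whose GENCODE annotation overlaps the end of Fosl1, with its end 8.046 kb and its start 12.432 kb from the window centre, although the TSS of Fosl1 was the nearest. On the other side, AI837181 ended 17.804 kb away, and 20384 bp separated it from Fosl1. The window held Runx motifs on the - strand at bases 8 to 13 (TGCGGC) and 52 to 57 (TGCGGT). The latter was centred 3.5 bp from the window centre. Within 300 bp of the centre there were 5 Runx motifs, a count that 7.1% of windows reached or passed, and no AP-1 site. Only 1 of the 5 motifs (TGCGGT) ended in T, and the others ended in C.

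Fosb, a Fos protein whose long-lived splice form accumulates on repeated stimulation, had a window 6850 bp upstream of its TSS (rank 251, chr7:19902194-19902294, Entrez 14282, NM_008036, - strand). The other flanking gene was Ercc1, an excision repair endonuclease subunit that is transcribed in the opposite direction, with its TSS 28.211 kb away. The interval between both genes was 35060 bp, and Fosb was also the gene deposited as nearest. The window held an AP-1 site (TGATTCA) at bases 70 to 76, centred 22 bp from the window centre, and no Runx motif. Runx motifs stood just outside it, TGTGGT at 78.5 bp and TGTGGC at 85.5 bp from the centre, on opposite sides. Within 300 bp there were 6 Runx motifs and 3 AP-1 sites. Of all windows, 2.7% had as many Runx motifs and 1.7% as many AP-1 sites, or more. Among the 6 Runx motifs, 2 were TGTGGT and the others ended in C.

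Atf3 (Entrez 11910, NM_007498, - strand) was the only gene of the 5 with more than 1 window. Both were upstream of it, in the interval of 123463 bp between Atf3 and Nenf, a gene for a secreted neurotrophic factor. The distal window (rank 27, chr1:193116370-193116470) lay 109208 bp from the Atf3 TSS and 25.577 kb from the TSS of Nenf, which was also the gene deposited as nearest. The proximal window (rank 596, chr1:193054339-193054439) lay 47177 bp from the Atf3 TSS, or 47179 bp in the IgG-named list, and 87.608 kb from that of Nenf. It was deposited with Atf3 as the nearest gene. The windows were 62.031 kb apart. A lincRNA gene of GENCODE, D730003I15Rik, starts 6.036 kb from the proximal window and is not among the deposited neighbours. Of the 1966 gene identifiers beside windows, 291 (14.8%) had at least 2 windows.

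The distal Atf3 window held an AP-1 site and a Runx motif together. The AP-1 site TGACTCA stood at bases 43 to 49, centred 5 bp from the window centre, and TGTGGT stood on the - strand at bases 64 to 69, centred 15.5 bp from it. Their midpoints were 20.5 bp apart, against a median of 23 bp over the 94 windows (9.4%) that held both. Of these 94 windows, 3 had rank 27 or a higher place, and the highest had rank 18. Both motifs were in 9.0% of the top 100 windows, near the share of all windows. They were in 14.1% of the windows at 5 to 50 kb from a TSS, the class of the distal Atf3 window. Within 300 bp there were 4 Runx motifs and 2 AP-1 sites. The proximal Atf3 window held TGTGGT on the - strand at bases 50 to 55, centred 1.5 bp from the window centre, and no AP-1 site. Within 300 bp it had 3 Runx motifs and 1 AP-1 site.

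The Runx motif was thus within the windows of 2 of the 5 genes, Fosl1 and Atf3, and in 3 of the 6 windows. It was found in 66.1% (63.1 to 69.0%) of all windows of the main list, in 53.9% of those within 0.5 kb of a TSS and in 72.8% of those at 5 to 50 kb. In stretches of the same length 500 bp to the left and right of the windows, 16.1% and 16.0% held it. The study recovered this motif, TG(T/C)GG(T/C), from the top peaks of its Runx3 ChIP-seq. The contrast is therefore not independent of the choice of motif. When the windows were extended by 50 or 100 bp on each side, Fosb was added and the count was 3 genes. AP-1 sites were within the windows of 2 genes, Fosb and Atf3. The Fosb site was TGATTCA, so with N limited to C or G only Atf3 would be counted. With N as any base, AP-1 sites were found in 11.3% (9.48 to 13.4%) of all windows and in 3.1% and 2.5% of the stretches to the left and right. By distance, an AP-1 site was held by 2.76% of those closer than 0.5 kb to a TSS and by 15.6% of those at 5 to 50 kb, the class of the Fosb and both Atf3 windows. The number of windows beside the genes was too small for a test of either motif, and the intervals cover counting error only.

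**Figure D3:**
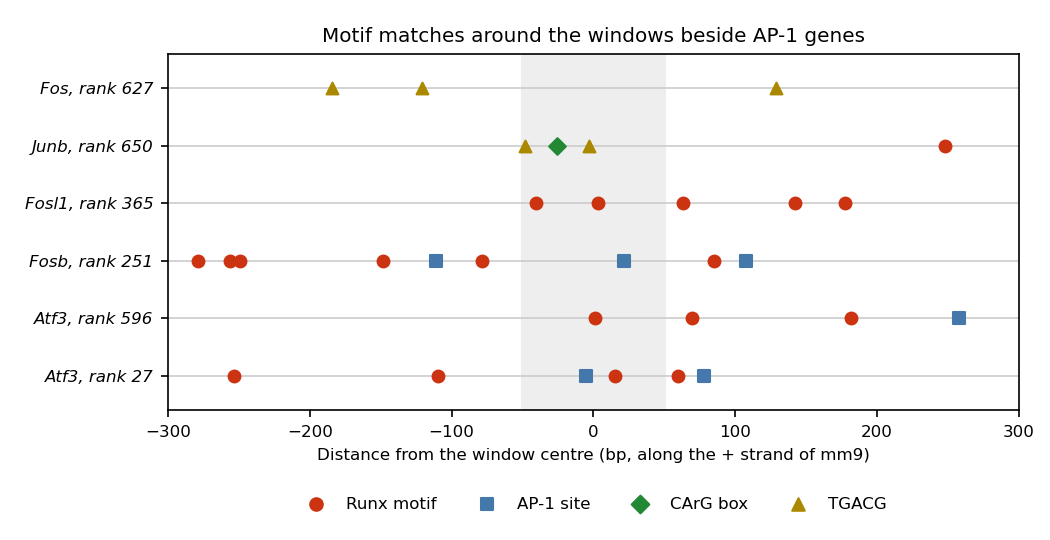
Matches of the Runx motif, the AP-1 site, the CArG box and the letters TGACG within 300 bp of the centre of each window beside the 5 genes, on both strands. The horizontal axis is the distance from the window centre in bp along the + strand, rows are windows of the main list, and the grey band is the 101-bp window. The Fos row has no Runx motif, the Junb row has 1 at 248.5 bp, and the other rows have 3 to 6.

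In RefSeq promoters, which hold 250 bases before and 50 bases after a gene's start in GRCm38.p6, Fos, Fosb, Junb and Atf3 were matched by symbol. Of these 4, only the Fosb promoter held a Runx motif, which 45.2% of 32851 promoters did. TGACG or its complement was in the promoters of all 4, against 20.8% of promoters. None of the 4 held TGANTCA, found in 7.81% of promoters, the full cAMP response element (1.79%) or a CArG box (1.63%). These are counts of letters in sequences that the windows of Fosb, Junb and Atf3 did not reach. The Fos CArG box printed above begins 309 bases before the GENCODE start and so lies outside the 250 bases searched.

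Exact copies of the windows elsewhere in the genome were also sought. In each of the 6 windows, 3 of 3 non-overlapping 31-base stretches occurred 1 time in mm9 when both strands were counted. These stretches therefore had no exact copy at a paralog of the Fos or Jun families.

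The remaining AP-1 genes were examined by their deposited neighbours and by the distance from their GENCODE start to the nearest window centre. Of 15 other family genes, 4 (26.7%) were deposited beside a window of the main list, against 8.89% of all protein-coding genes. None had a window within 5 kb of its start, where 2.03% of all genes had one. The 5 genes chosen for their windows are left out of the 15, and Jdp2 was counted only through the Fos window. The shares were shaped by this choice and were not tested. Fosl2, which encodes Fra-2, had a window 152371 bp upstream of its TSS (rank 514 in the main list and 505 in the IgG-named list, chr5:32286486-32286586). That window lay in an intron of Bre, which was deposited as nearest, and Rbks was its further flanking gene. It held TGTGGT at bases 28 to 33 and 52 to 57. A further Fosl2 window was present only in the IgG-named list (rank 867, 377982 bp upstream). Jdp2 shared the Fos window. Maf had a window 376394 bp upstream (rank 897, with Dynlrb2 on the other side) and Mafa a window 73130 bp upstream (rank 563, in an intron of Zc3h3 and with Gsdmd deposited as nearest). Maf and Mafa are large Maf proteins, and both windows held TGTGGT. Counted by distance, 1 of the 15 genes was within 50 kb of a window and 3 within 100 kb, and the median distance was 176 kb.

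The other 11 family genes were beside no window of either list. Jun, the main partner of Fos proteins, was the farthest of all 20 genes, with its nearest window at 2952 kb. Jund had a window at 176 kb. Batf and Batf3, which pair with Jun proteins in lymphocytes and dendritic cells, were 213 kb from the Fos window and 132 kb from the proximal Atf3 window, respectively. Those windows are the ones already described beside Fos and Atf3. Batf2 lay at 191 kb in the main list and at 295 kb in the IgG-named list. Atf2 lay at 1021 kb and 2184 kb in these lists, and Atf7 at 155 kb in both. Of the Maf-related genes, Mafg was nearest (35.1 kb) and closer to a window than Atf3, but Thoc4 and Anapc11 flanked that window. Nrl lay at 79.1 kb, Maff at 471 kb and Mafk at 539 kb. Each list holds only its 1000 highest windows, so a gene without a window here may have weaker ones that were not analysed here.

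**Figure D4:**
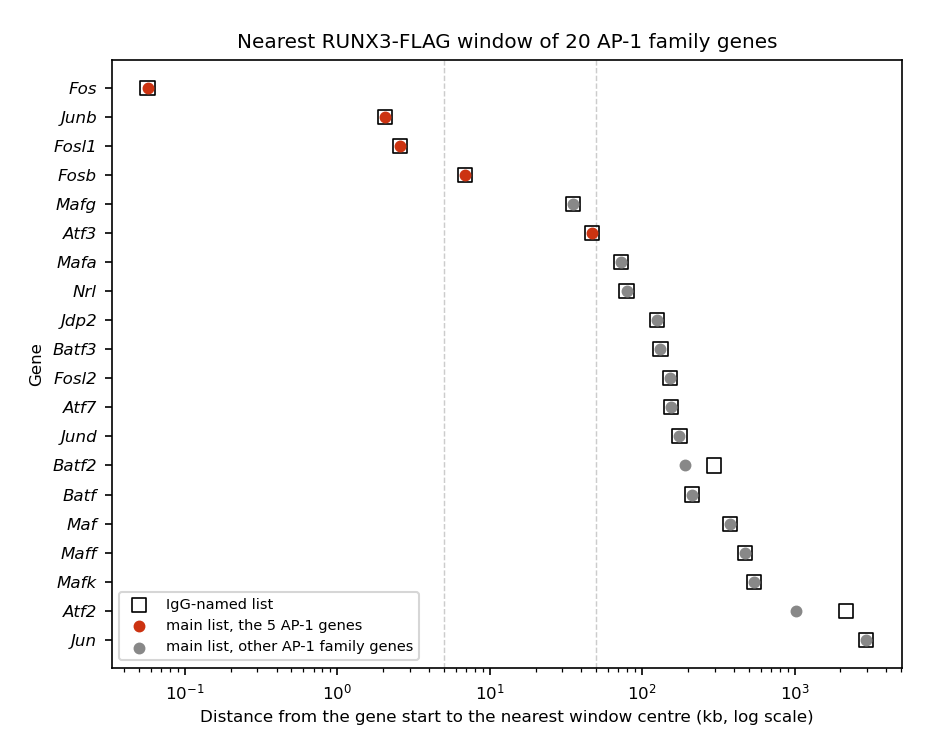
Distance from the GENCODE start of each of 20 AP-1 family genes to the nearest window centre (horizontal axis, kb, log scale), with filled circles for the main list (red for the 5 genes with the windows described, grey for the others) and open squares for the IgG-named list. Dashed lines mark 5 and 50 kb; the red circles run from 0.057 kb (Fos) to 47.2 kb (Atf3), and among the grey circles only Mafg (35.1 kb) is within 50 kb.

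Genes that control AP-1 genes were counted in the same way. Of 42 regulators (serum response factor and its cofactors, Creb proteins, MAP kinases with their upstream kinases and phosphatases, and others), 5 (11.9%) were deposited beside a window of the main list, against the 8.89% of all protein-coding genes. They were the same 5 in the IgG-named list. Dusp1, a phosphatase that switches off MAP kinases and is itself an immediate early gene, had 3 windows, all upstream, at 6.431 kb (rank 725), 21.348 kb (rank 352) and 97.378 kb (rank 658). AP-1 sites were within the Dusp1 windows of ranks 725 and 658, and Runx motifs within those of ranks 352 and 658. Map3k7, the kinase TAK1, had windows 216 and 606 kb downstream of its TSS (ranks 158 and 448). Crebbp, a histone acetyltransferase that binds Creb and Fos proteins, had a window 136 kb from its TSS (rank 56), past its end. The windows of Mapk8 (rank 762, 199 kb) and Rps6ka5 (rank 79, 523 kb) had other genes deposited as nearest, as did the Map3k7 window of rank 448 (Bach2) and the Dusp1 window of rank 658 (Ergic1). Of these regulators, only Dusp1 had a window within 50 kb of its start.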

How the data were processed

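According to the study's methods, the authors used bowtie for alignment to unmasked mm9 and CisGenome to call peaks of RUNX3-FLAG over input, keeping those that passed limits on false discovery rate and P value. The deposited columns used here are ranks, positions in bp and signed distances in bp to RefSeq gene starts and ends, with neighbouring genes up to 10 Mb away, from 1 library and without pooling. Peak calling settings decide which windows reach the 1000 listed.

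Deposited positions count from 0 and are printed from 1. Distances run from the window centre. Genes were matched by Entrez identifier. Sequences came from the mm9 reference and RefSeq promoters, and motifs were sought on both strands. The cAMP response element contains TGACG, and the AP-1 site does not. The CArG box was sought by its consensus. Shares have Wilson 95% intervals.

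The members, gene lists and motifs were chosen with earlier results of these data known. Named genes were the 5 members, 15 other family genes (a further gene is not reported here), every gene flanking a window of these, and those of 42 regulators with a window. The genes nearest to other CArG windows or in GENCODE only, and those beside the window close to Junb, were named after their values were seen. No test was made, since there was 1 library per group. The motif search was tested on simulated windows with planted Runx motifs, and the other motifs were not planted. Distance code was checked against the deposited distances, and 2462 of 2462 rows were equal. The work used pandas 2.3.3, matplotlib 3.10.9, scipy 1.17.1 and numpy 2.4.6 under Python 3.11.15.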

Additional observations from a re-analysis of the deposited data

How the results depend on the processing

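Over 20 results, 47 alternative values were computed, of which 42 were close to the reported value, 5 moved and 0 changed sign. Counts were called close within 1.5 times the reported count, and distances within 50 bp. Counts and ranks cannot change sign. Measuring from the window edge shifts a distance by at most 50 bp, so closeness there follows from construction. With the top 33.3% of the windows alone, 2 of the 5 genes had a window. With the cAMP response element in place of TGANTCA, 0 of the 5 genes had a site in a window. When a window within 50 kb of the gene start was required, 1 other family gene (Mafg, which is beside none of the windows) and 1 regulator qualified. Within 100 kb, 2 regulators qualified. The lower counts under these settings follow from their construction (fewer windows, other letters or a distance limit). No paired analysis was possible because there is only 1 library of each kind and no result comes from a test. A replicate could not be left out for the same reason. Without read counts per window, the ranks cannot be given an error.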
